A study of Mus musculus with 8 samples.

Results

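The core antiviral interferon-stimulated genes were followed in the ileum of male KKAy mice given voglibose or water. The members were 39 genes listed by symbol, from which the IFIT, OAS and interferon-inducible GTPase families were kept out. Of these, 37 had a probe set and are described here, among 22206 probe sets in all, of which 19572 carried a gene symbol. Ifi44 and Ifi47 were not analysed here. KKAy mice carry the yellow agouti allele and become obese and diabetic. Mice of both groups were housed at 14 weeks of age and 30 g, and were fed a high-fat chow (45% of energy as fat). After 4 weeks on it, 4 mice were gavaged daily with voglibose at 1 mg/kg and 4 with water, for 8 weeks. Voglibose, an alpha-glucosidase inhibitor, delays the digestion of starch and sucrose in the gut. Each mouse gave 1 array from a piece of ileum about 4 cm long, so the p-values set the difference between groups against the variation between mice.

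Interferons are secreted when sensors in the cytosol or in endosomes bind foreign nucleic acid. Type I interferons and the lambda interferons of epithelia bind separate receptors, and both lead through the kinases JAK1 and TYK2 to a complex that holds STAT2 and IRF9. This complex binds the interferon-stimulated response element in the promoters of antiviral genes, while interferon gamma acts at gamma-activated sites. In the gut epithelium a low level of this program is known to depend on the microbiota and to differ along the intestine.

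Values are log2 signals after normalization by the authors, where 1 unit is a 2-fold change. The arrays had medians between 5.89 and 5.94, and 34 of the 37 members lay above the median signal of the probe sets. The tissue label was checked against ileal and epithelial markers. The villus gene Vil1 lay between 15.30 and 15.82 and Fabp2 between 18.58 and 19.02 in all 8 mice. Fabp6, the bile acid binding protein of the distal ileum, differed widely, with 8.51, 17.50, 14.11 and 4.01 in water mice 1 to 4 and 8.14, 3.54, 10.78 and 11.68 in voglibose mice 1 to 4. Water mouse 4 and voglibose mouse 2 thus stood apart from the others by their low signal of this ileal marker, and results are also given without them.

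In voglibose mice most of the interferon-stimulated genes gave a lower signal. The mean was lower in 34 of 37 members, where 50.9% of all probe sets and 56.8% of those above the median signal were lower. The members' median difference was -0.56 (voglibose minus water, log2 signal), against -0.005 over all probe sets. It was largest for Usp18, at -2.39 ± 0.92 (SE, n = 4 per group), and it was above 0 for Sp100, Socs1 and Mx1. Each SE of a difference and its interval come from limma, which moves a gene's variance toward a value shared by the array. For members with a wide spread they are narrower than the gene's own variance would give. Usp18 had a pooled SD within groups of 1.76. Its unadjusted p was 0.025 (limma), and 0.10 with no moderation of the variance. No member passed the test over all probe sets (limma, Benjamini-Hochberg), with adjusted p from 0.652 to 0.997, and 0% of the array did. At an unadjusted p under 0.05 stood 11 members, all lower in voglibose mice, where the share of the array was 7.52% in either direction, 4.44% for lower signal and 7.08% for lower signal among probe sets above the median. With no moderation of the variance, 3 members stood under that p. In 0 of the 37 members did the 4 voglibose mice lie wholly apart from the 4 water mice, while the groups did not overlap in 4.35% of all probe sets.

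The count of 11 depended on single mice. Leaving out 1 mouse gave 1 member for water mouse 4, 1 for voglibose mouse 1, 3 for water mouse 3 and 4 for voglibose mouse 4. It gave 11 for voglibose mouse 3, 16 for water mouse 1, 16 for voglibose mouse 2 and 17 for water mouse 2. Leaving out voglibose mouse 2 gave a median difference of -0.74, and leaving out water mouse 1 gave -0.72. Without water mouse 4 the median difference was -0.37, and without voglibose mouse 4 it was -0.36. Without both water mouse 4 and voglibose mouse 4, the median was -0.11, with 26 of 37 members lower. These were picked as the highest water mouse and the lowest voglibose mouse in the members' mean. Leaving out a pair picked in this way could only raise the difference of that mean, voglibose minus water. Without water mouse 4 and voglibose mouse 2, the pair with the lowest Fabp6, the median was -0.51 and 33 of 37 members were lower. Leaving out water mouse 4 moved the difference of 28 members by over 1.5 times or turned its sign, and leaving out voglibose mouse 4 did so in 21. For the other mice this number was 3 to 11. No single mouse did so in 6 members, which were Dhx58, Eif2ak2, Usp18, Ifitm3, Tor3a and Phf11d. Usp18 came close to this limit, going from -2.39 to -1.59 without voglibose mouse 4. Tor3a also did, going from -0.42 to -0.28 without water mouse 4. Without water mouse 4, only Phf11d of these 6 had an unadjusted p under 0.05 (0.026, limma).

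**Figure D1:**
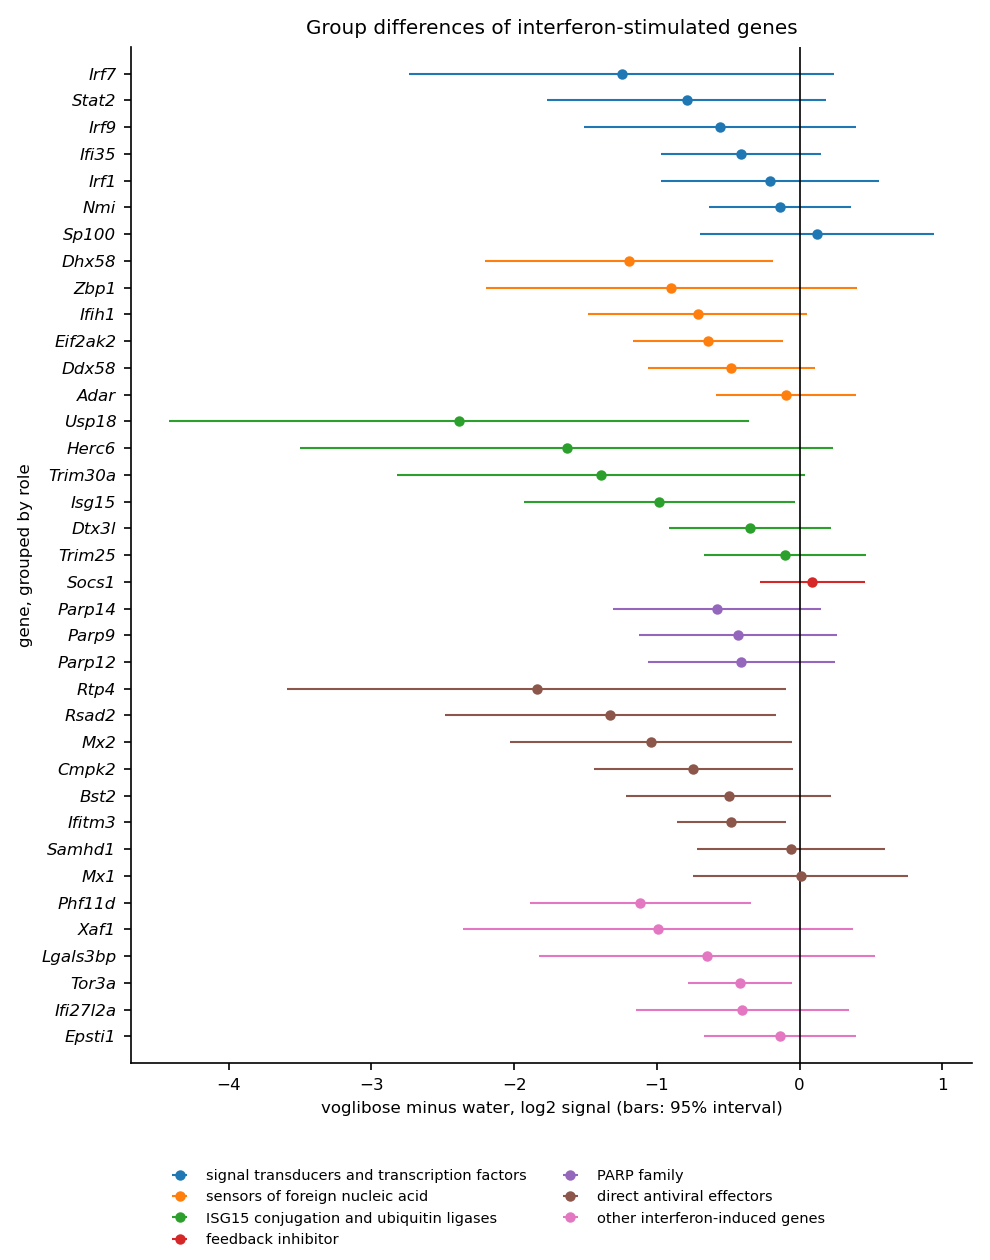
Difference between the groups for each of the 37 members (voglibose minus water, log2 signal), with 95% intervals from limma and colours for roles. In 11 members the interval lies wholly below 0, and 34 of 37 points lie left of 0.

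The members moved together from mouse to mouse. Water mouse 4 lay above the gene's mean over 8 mice in 37 of 37 members, water mouse 3 in 34, water mouse 2 in 15 and water mouse 1 in 1. Among voglibose mice, mouse 2 lay above it in 27 members, mouse 3 in 16, mouse 1 in 6 and mouse 4 in 2. Over all probe sets these shares ran only from 47.0% to 52.8%. Water mouse 4 was the highest of all mice in 29 members, and voglibose mouse 4 the lowest in 27. Averaged over the members, the signal relative to each gene's mean was -0.38, -0.05, 0.59 and 1.20 in water mice 1 to 4, and -0.52, 0.29, -0.04 and -1.09 in voglibose mice 1 to 4. The group mean of this average was 0.34 ± 0.70 (SD, n = 4) with water and -0.34 ± 0.60 with voglibose. The groups overlapped, since water mice 1 and 2 lay below voglibose mouse 2.

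**Figure D2:**
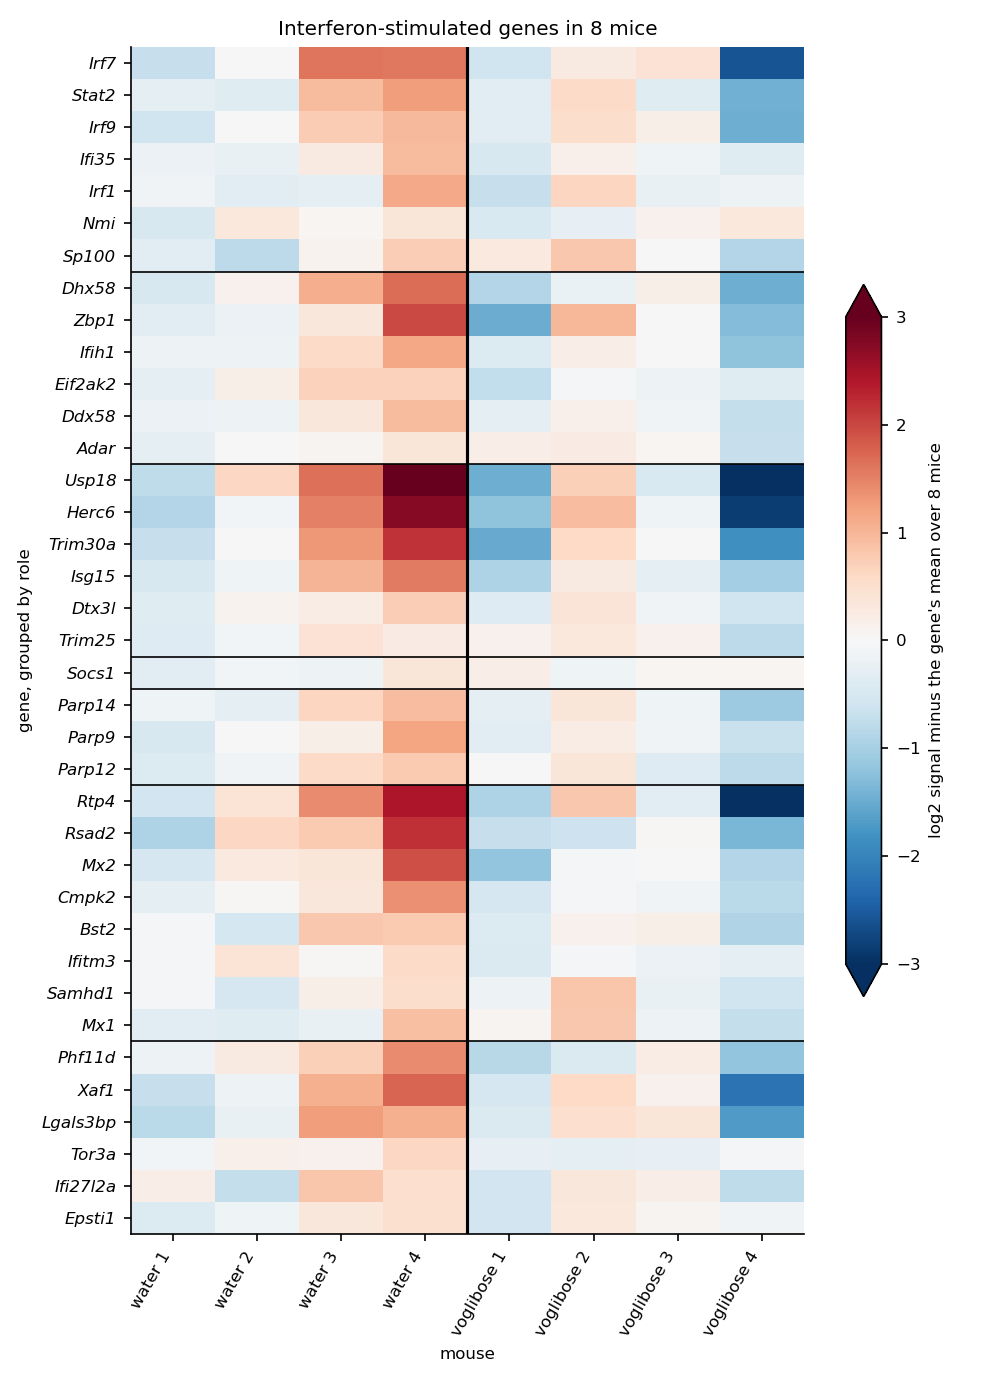
Log2 signal of each member minus its mean over the 8 mice, with genes in rows grouped by role and mice in columns (colours end at 3 units in each direction). Water mice 3 and 4 are mostly red, voglibose mouse 4 is mostly blue, and Socs1 spans only 0.68 units over the 8 mice.

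The spread between mice of the same group was wide. The pooled SD within groups had a median of 0.62 over the members and 0.26 over all probe sets, and 34 of 37 members lay above the upper quartile of the array, 0.34. The group difference exceeded the member's own pooled SD in 15 of 37. Between the lowest and the highest of the 8 mice the median member differed 3.61-fold, and the median probe set 1.72-fold. Usp18 had the widest range, 115-fold, followed by Rtp4 with 50.6-fold and Herc6 with 48.2-fold. The members' correlation with the mean of the other members over the 8 mice had a median of 0.92 and was above 0.8 in 25 of 37. It was lowest for Socs1 (0.25) and Nmi (0.26). These arrays share their normalization, and the correlations are given as a description.

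**Figure D3:**
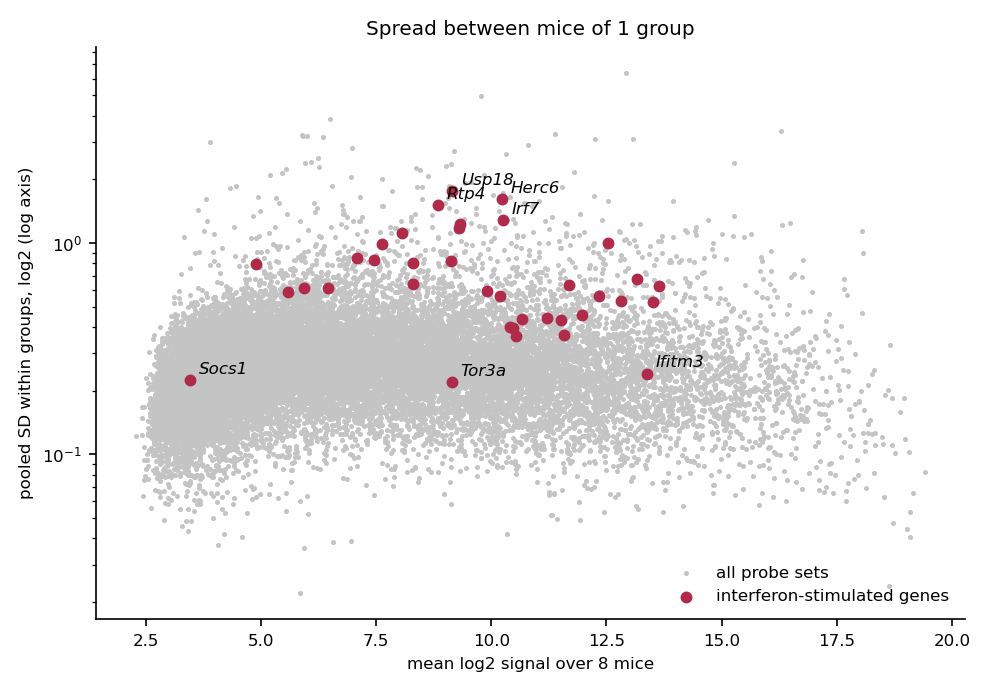
Pooled SD within groups (log axis) against mean log2 signal over 8 mice, for all 22206 probe sets (grey) and the 37 members (red). Most members lie at the upper edge of the cloud, with Usp18 at 1.76, while Tor3a, Socs1 and Ifitm3 lie within it, at 0.22 to 0.24.

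Transcription factors and signal transducers come first in the pathway. Irf7, the factor that amplifies interferon production, had 9.56, 10.24, 11.85 and 11.84 in water mice 1 to 4 and 9.65, 10.52, 10.69 and 7.65 in voglibose mice 1 to 4. Water mice 3 and 4 were highest and voglibose mouse 4 lowest, and the other 5 lay between 9.56 and 10.69. The difference was -1.25 ± 0.68 (SE). Stat2, a subunit of the response complex, gave 8.86, 8.77, 10.07 and 10.39 with water and 8.78, 9.69, 8.77 and 7.69 with voglibose, with the same mice at the ends and a difference of -0.79 ± 0.44. Irf9, the DNA-binding subunit of that complex, differed by -0.56 ± 0.43. Without voglibose mouse 4, the differences were -0.59 (Irf7), -0.44 (Stat2) and -0.16 (Irf9), and without water mouse 4 those of Stat2 and Irf9 were -0.50 and -0.33.

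Sp100, a component of nuclear bodies with antiviral activity, had the smallest difference of this role, 0.12 ± 0.37. Its signals were 12.85, 12.37, 13.27 and 13.90 with water and 13.45, 13.97, 13.17 and 12.29 with voglibose, so the groups covered nearly the same range. Irf1, a factor that is also induced by interferon gamma, differed by -0.21 ± 0.35, and by 0.14 without water mouse 4. Nmi and Ifi35, partner proteins that bind each other, differed by -0.14 ± 0.23 and -0.41 ± 0.25, and without water mouse 4 by -0.03 and -0.17. Sp100 reached 0.43 without voglibose mouse 4 and -0.13 without voglibose mouse 2. Of the 7 members of this role, 6 had a lower mean and 0 an unadjusted p under 0.05.

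Sensors of foreign nucleic acid had lower means in 6 of 6 members. Dhx58, which encodes the RNA helicase LGP2, had 6.61, 7.21, 8.17 and 8.76 with water and 6.20, 6.88, 7.26 and 5.63 with voglibose. Of the voglibose mice, 2 lay below the lowest water mouse, and the difference was -1.20 ± 0.46 (95% interval -2.20 to -0.19). Zbp1, a sensor of Z-form nucleic acid that can start necroptosis, gave 7.70, 7.88, 8.39 and 10.03 with water and 6.57, 9.04, 8.04 and 6.75 with voglibose. Its spread was wide in both groups, with voglibose mouse 2 above water mice 1, 2 and 3, and the difference was -0.90 ± 0.59. The RNA helicases Ifih1 (MDA5) and Ddx58 (RIG-I) differed by -0.72 ± 0.35 and -0.48 ± 0.27. Eif2ak2, the kinase PKR that halts translation on binding viral RNA, differed by -0.64 ± 0.24 (95% interval -1.17 to -0.11). Without water mouse 4, Zbp1, Ifih1 and Ddx58 differed by -0.39, -0.45 and -0.24.

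Adar, the enzyme that edits adenosine to inosine in RNA and so limits sensing of the cell's own transcripts, differed little. Signals were 10.24, 10.55, 10.62 and 10.89 with water and 10.73, 10.77, 10.59 and 9.84 with voglibose. Only voglibose mouse 4 lay outside the water range, and the difference was -0.09 ± 0.22, or 0.01 without water mouse 4 and 0.12 with voglibose mouse 4 left out.

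The genes of ISG15 conjugation and ubiquitin ligases had the largest median difference of the roles, -1.19, with lower means in 6 of 6. ISG15 is a ubiquitin-like protein, HERC6 is its main ligase in mice, and USP18 removes it from proteins and also blocks the type I interferon receptor. Usp18 had 8.39, 9.78, 10.81 and 12.42 with water and 7.70, 9.87, 8.70 and 5.58 with voglibose. Water mouse 4 stood highest and voglibose mouse 4 lowest, while voglibose mice 2 and 3 lay within the water range. The difference of -2.39 corresponds to 5.23-fold, and its 95% interval ran from -4.42 to -0.36. Leaving out water mouse 4 gave -1.70, leaving out voglibose mouse 4 gave -1.59, and leaving out both gave -0.90.

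Herc6 followed the same order, with 9.35, 10.16, 11.74 and 12.97 with water and 9.04, 11.16, 10.11 and 7.38 with voglibose (difference -1.63 ± 0.85). Isg15 itself had dim signals, 4.40 to 6.43 in water and 3.87 to 5.15 in voglibose mice, and differed by -0.98 ± 0.43. Trim30a, a TRIM protein that restrains inflammatory signalling in mice, differed by -1.39 ± 0.65, and Dtx3l, the ubiquitin ligase that pairs with PARP9, by -0.34 ± 0.26. Without water mouse 4, the differences were -0.99 (Herc6), -0.63 (Isg15), -0.90 (Trim30a) and -0.16 (Dtx3l). Trim25, the ubiquitin ligase that activates RIG-I, stood at 10.29, 10.58, 11.10 and 10.92 with water and 10.81, 10.99, 10.80 and 9.88 with voglibose. Its difference was -0.10 ± 0.26, with 3 voglibose mice inside the water range, and it was 0.14 without voglibose mouse 4. Socs1, the feedback inhibitor of JAK kinases, lay below the lower quartile of the arrays (4.05 to 4.18). It had 3.14, 3.39, 3.32 and 3.82 with water and 3.66, 3.34, 3.51 and 3.52 with voglibose, so that all voglibose mice fell within the water range (difference 0.09, 95% interval -0.28 to 0.46).

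The PARP family transfers ADP-ribose to proteins, and its interferon-induced members took lower means in 3 of 3. Parp14 gave 9.78, 9.63, 10.55 and 10.83 with water and 9.62, 10.26, 9.78 and 8.81 with voglibose (difference -0.58 ± 0.33). Parp9 stood at 9.71, 10.20, 10.37 and 11.38 with water and 9.88, 10.42, 10.10 and 9.53 with voglibose (difference -0.43 ± 0.32). Parp12, the brightest of them, had 13.10, 13.39, 14.07 and 14.28 with water and 13.51, 13.86, 13.12 and 12.72 with voglibose (difference -0.41 ± 0.30). In each of the 3, water mouse 4 was highest, voglibose mouse 4 lowest and the remaining mice intermixed. The differences were -0.37, -0.11 and -0.22 without water mouse 4, and -0.31, -0.28 and -0.21 without voglibose mouse 4.

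Direct antiviral effectors had lower means in 7 of 8 members, of which 5 had an unadjusted p under 0.05. The share lower at that p was 4.44% of all probe sets and 7.08% of those above the median signal. Without water mouse 4, the smallest unadjusted p of these 5 was 0.056 (limma), for Ifitm3. Rtp4, a chaperone that also restricts flaviviruses, had 8.26, 9.25, 10.26 and 11.27 with water and 7.92, 9.64, 8.50 and 5.61 with voglibose. The difference was -1.84 ± 0.79, with voglibose mouse 4 more than 2 units below any other mouse, and it was -1.07 without that mouse. Rsad2, which encodes viperin, a radical SAM enzyme that makes a chain-terminating nucleotide, gave 6.70, 8.25, 8.41 and 9.81 with water and 6.95, 7.00, 7.66 and 6.26 with voglibose. Here 3 water mice lay above all 4 voglibose mice while water mouse 1 lay among them (difference -1.33 ± 0.53). Cmpk2, the mitochondrial nucleotide kinase encoded beside Rsad2, differed by -0.74 ± 0.32. Without water mouse 4, Rsad2 and Cmpk2 differed by -0.82 and -0.41.

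Ifitm3, a membrane protein that blocks virus entry, was bright and had a small spread. Its signals were 13.31 to 13.94 in water and 12.94 to 13.32 in voglibose mice, a difference of -0.48 ± 0.17 (95% interval -0.86 to -0.10). Of its voglibose mice, 3 lay below all water mice, and voglibose mouse 2 exceeded the lowest water mouse by 0.01. Mx1 and Mx2 encode dynamin-like GTPases that block viral replication. Mx2 differed by -1.04 ± 0.45, while Mx1 had 6.13, 6.10, 6.24 and 7.36 with water and 6.54, 7.26, 6.31 and 5.75 with voglibose. Mx1 was high in water mouse 4 and voglibose mouse 2, and its difference was 0.0075 with a 95% interval from -0.74 to 0.76. Whether the differences of Mx1 and Mx2 are unequal was not tested. The tetherin gene Bst2 and the nucleotide hydrolase gene Samhd1 differed by -0.50 ± 0.33 and -0.06 ± 0.30. Without water mouse 4, the differences were -0.57 (Mx2), 0.31 (Mx1), -0.32 (Bst2) and 0.10 (Samhd1).

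Other interferon-induced genes had lower means in 6 of 6 measured members. Phf11d, a PHD finger gene, had 8.14, 8.55, 9.00 and 9.70 with water and 7.46, 7.85, 8.52 and 7.10 with voglibose. In this gene 3 voglibose mice lay below all water mice and voglibose mouse 3 lay between water mice 1 and 2. Its difference was -1.12 ± 0.35 (95% interval -1.89 to -0.34), with an adjusted p of 0.652 from limma. Tor3a, an ATPase of the torsin family, differed by -0.42 ± 0.17 at a pooled SD of only 0.22, and 3 of its voglibose mice lay below all water mice. Xaf1, which antagonizes the apoptosis inhibitor XIAP, gave 8.60, 9.14, 10.36 and 11.04 with water and 8.79, 9.88, 9.42 and 7.08 with voglibose (difference -0.99 ± 0.62). With water mouse 4 left out it differed by -0.57, and with voglibose mouse 4 left out by -0.42.

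Epsti1 stood at 9.98, 10.26, 10.74 and 10.89 with water and 9.82, 10.71, 10.49 and 10.30 with voglibose. Its groups were intermixed, with a difference of -0.14 ± 0.24. The secreted glycoprotein gene Lgals3bp and the mitochondrial gene Ifi27l2a differed by -0.65 ± 0.54 and -0.40 ± 0.34, and without voglibose mouse 4 by -0.19 and -0.21. Without water mouse 3 the difference of Ifi27l2a was -0.19, and that of Epsti1 was 0.0033 without water mouse 4.

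**Figure D4:**
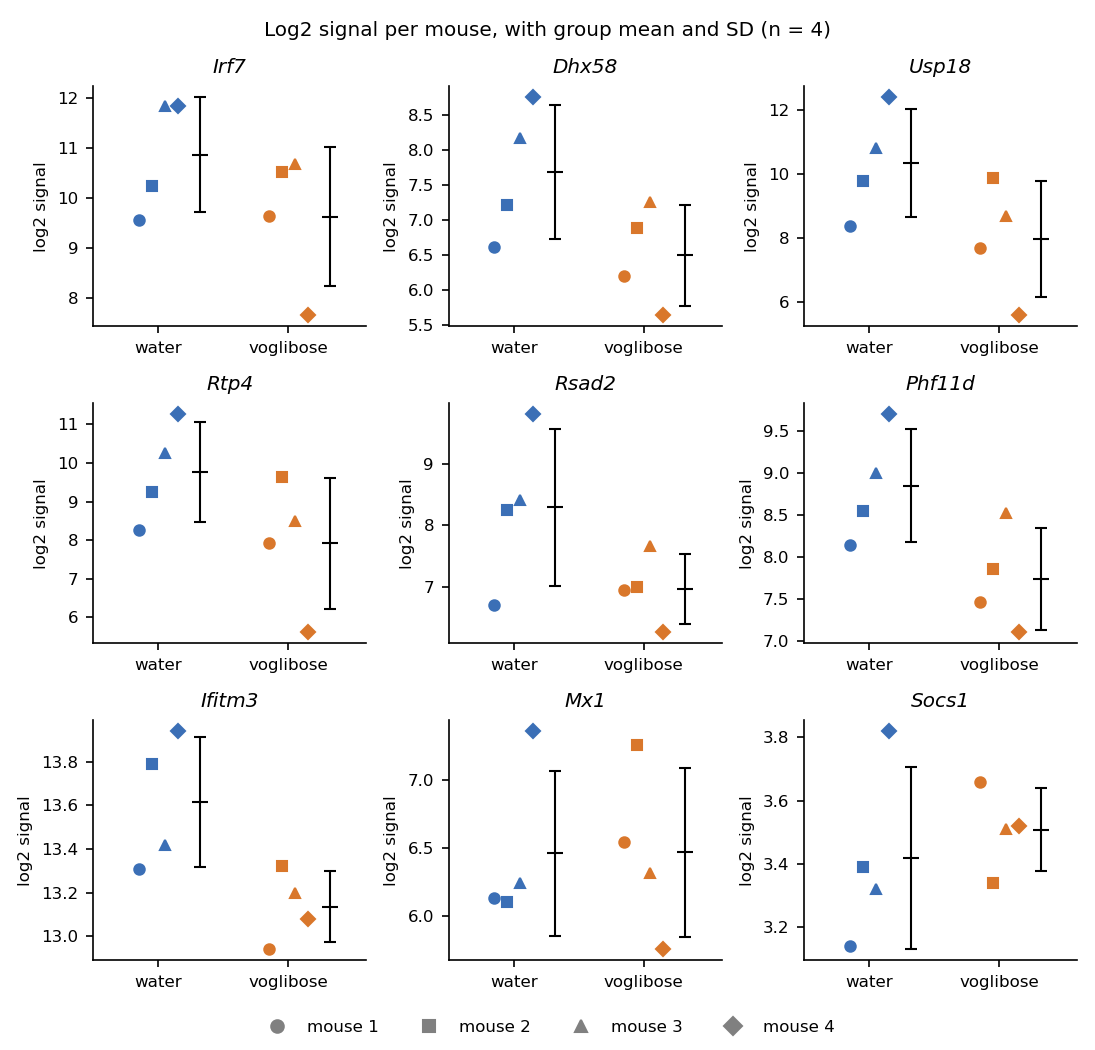
Log2 signal of 9 members in each mouse (symbols by mouse number), with the group mean and SD (n = 4). Mouse 4 is the highest water mouse in 8 of the 9 panels, Irf7 aside, and the lowest voglibose mouse in all but Ifitm3 and Socs1.

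The response element was looked for in the RefSeq promoter windows (GRCm38.p6, 250 bases before to 50 after the annotated start), since the members varied together. Its core was searched as GAAANNGAAA on both strands, with overlapping matches joined. Of 37 members, 27 had a window, and 10 of these 27 (37.0%) held the core, against 3.99% of the 27025 genes in the table. The gamma-activated site, TTCNNNGAA (the same on both strands), was searched separately, so bases may count to both motifs. It stood in 7 of 27 members (25.9%) and in 9.55% of genes. Members with the core had a median difference of -0.68 and the 17 without it -0.41. A match is a description of the letters in this window. The windows of the 3 members with the core and the largest differences are printed 5′ to 3′ with the matches in capitals, followed by the element of 4 further members to show its forms.
Trim30a, chr7:104465144-104465443, minus strand: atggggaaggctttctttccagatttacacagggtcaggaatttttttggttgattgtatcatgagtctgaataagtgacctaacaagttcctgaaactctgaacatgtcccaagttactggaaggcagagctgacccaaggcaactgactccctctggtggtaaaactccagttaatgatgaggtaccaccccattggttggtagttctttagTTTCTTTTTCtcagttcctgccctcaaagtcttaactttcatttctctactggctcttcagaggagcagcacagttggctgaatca
Rsad2, chr12:26456403-26456702, minus strand: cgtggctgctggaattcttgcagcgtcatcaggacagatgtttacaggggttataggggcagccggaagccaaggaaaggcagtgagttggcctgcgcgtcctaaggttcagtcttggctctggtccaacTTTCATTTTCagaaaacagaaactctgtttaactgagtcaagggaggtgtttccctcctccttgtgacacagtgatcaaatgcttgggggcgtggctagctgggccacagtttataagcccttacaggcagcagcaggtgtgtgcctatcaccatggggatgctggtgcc
Isg15, chr4:156200769-156201068, minus strand: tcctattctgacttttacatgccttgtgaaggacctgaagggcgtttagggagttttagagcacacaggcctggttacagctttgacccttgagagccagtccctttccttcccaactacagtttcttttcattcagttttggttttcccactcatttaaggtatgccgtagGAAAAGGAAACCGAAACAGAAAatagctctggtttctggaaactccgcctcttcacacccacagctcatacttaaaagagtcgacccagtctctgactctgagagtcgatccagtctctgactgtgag
Stat2 element: ccctggTTTCAGTTTCctttcc
Eif2ak2 element: cgccggGAAAACGAAAcagaag
Bst2 element: ttccagGAAAATGAAACTGAAAggctgc
Socs1 element: ttgccgGAAAGAGAAACCGAAAgcgggg

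The core began 36 bases upstream of the start in Trim30a, 120 in Rsad2, 78 in Isg15 and 83 in Socs1. Isg15 held overlapping copies in 1 run, as did Bst2 and Socs1. The core was thus present both in members with large differences and in Socs1, whose signal was dim and whose difference was 0.09. An exact match to the core was absent from the windows of Herc6 (-1.63), Irf7 (-1.245) and Phf11d (-1.115), whose differences were also large. Response elements that depart from these letters or lie outside the window were not counted, so these members may still hold one. Usp18 and Rtp4, with the largest differences of all members, had no window. Ifih1, Ddx58 and Ifitm3 were the other members with the core.

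Most interferon genes were dim, and 9 of 11 lay below the median of the arrays in every mouse, all but Ifna5 and Ifnl3. Of the 11, 8 had a higher and 3 a lower mean in voglibose mice, and their mean level ran from 4.47 to 4.79 in water and from 4.69 to 4.86 in voglibose mice. Ifnb1 differed by -0.005 ± 0.21, Ifnl2 by 0.17 ± 0.15, Ifnl3 by 0.11 ± 0.12 and Ifng by 0.34 ± 0.20 (SE). Ifna5 had 7.47, 7.50, 7.23 and 7.27 with water and 8.09, 8.19, 7.68 and 7.74 with voglibose, all voglibose mice above all water mice (0.56 ± 0.16, adjusted p = 0.652 from limma). The Ifna genes are near-identical copies, and a probe set may read several of them. The groups did not overlap in 2 of the 11 genes, Ifna5 and Ifnl3, where 4.35% of all probe sets had groups apart. For Ifnl3 the adjusted p was 0.866 (limma).

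Receptors and kinases of the pathway lay on both sides of 0, with 6 lower and 4 higher of 10 measured. Ifnar1, a subunit of the type I receptor, differed by -0.01 ± 0.18, and Ifnlr1, the lambda receptor subunit, by 0.49 ± 0.27. Adaptors and kinases upstream of interferon had 8 lower and 6 higher of 14 measured, with a median of -0.04. In neither list was there a gene with an unadjusted p under 0.05. The median of the receptor list was -0.01, against -0.56 for the members.

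Markers of region and of other cells were set beside the members, since a piece of tissue holds many cell types, and fewer cells of a type and less RNA per cell cannot be told apart. The 11 ileal enterocyte markers had mean levels of 13.91, 16.15, 14.98 and 13.07 in water mice 1 to 4 and 13.81, 13.03, 14.51 and 14.53 in voglibose mice 1 to 4. In 6 of the 11 (Vil1, Alpi, Fabp2, Krt20, Epcam and Cdh1), which the epithelium expresses along the intestine, the signal spanned 0.44 to 0.74 units over the 8 mice. The list mean therefore followed mainly Fabp6, the bile acid transporter gene Slc10a2 and the hormone gene Fgf15, which spanned 13.96, 7.83 and 8.70 units. The lowest mouse of each group, water mouse 4 and voglibose mouse 2, had the highest members of its group. The 8 proximal markers were highest in the same mice, at 12.56 and 12.72, with ranges of 10.85 to 12.56 in water and 11.71 to 12.72 in voglibose mice. As given above, the members' median was -0.51 without this pair of mice. Voglibose mouse 4, with the lowest members, had 14.53 for the ileal list, the highest of its group. Not all mice followed this order. Water mouse 1, next lowest of its group in the ileal list (13.91), had the lowest members of its group (-0.38). Voglibose mouse 1, also next lowest of its group (13.81), had members at -0.52. Water mouse 2, with the highest ileal level (16.15), had members at -0.05.

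T and NK cell markers also had their highest level in water mouse 4 (7.59) and voglibose mouse 2 (7.43). Their ranges over 12 of 14 markers were 5.77 to 7.59 in water and 6.51 to 7.43 in voglibose mice, with 9 of 12 higher in voglibose mice. Of 12 measured macrophage and pan-leukocyte markers, 9 had a lower mean in voglibose mice, with overlapping mean levels from 8.99 to 9.32 in water and 8.63 to 9.10 in voglibose mice. In Ccr2 (-0.96 ± 0.18) and Cd14 (-0.89 ± 0.19) the groups did not overlap, against 4.35% of all probe sets, and Mrc1 differed by -0.42 ± 0.17. Their adjusted p was 0.652, 0.652 and 0.658 (limma). Ptprc (0.09 ± 0.43), Itgam (0.05 ± 0.22) and Fcer1g (0.13 ± 0.23) had higher means in voglibose mice. Plasmacytoid dendritic cell markers were lower in 4 of 8, at 8.25 to 8.99 in water and 8.29 to 8.80 in voglibose mice. B and plasma cell markers (8 measured, 1 lower) ran from 7.55 to 9.32 and from 7.40 to 9.21, muscle and stroma markers (8 measured, 4 lower) from 10.18 to 12.27 and from 10.87 to 11.80, and goblet and Paneth markers (8 measured, 6 lower) from 16.65 to 17.12 and from 16.62 to 17.06. The part of these cells and of the region in the members' differences was not tested.

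**Figure D5:**
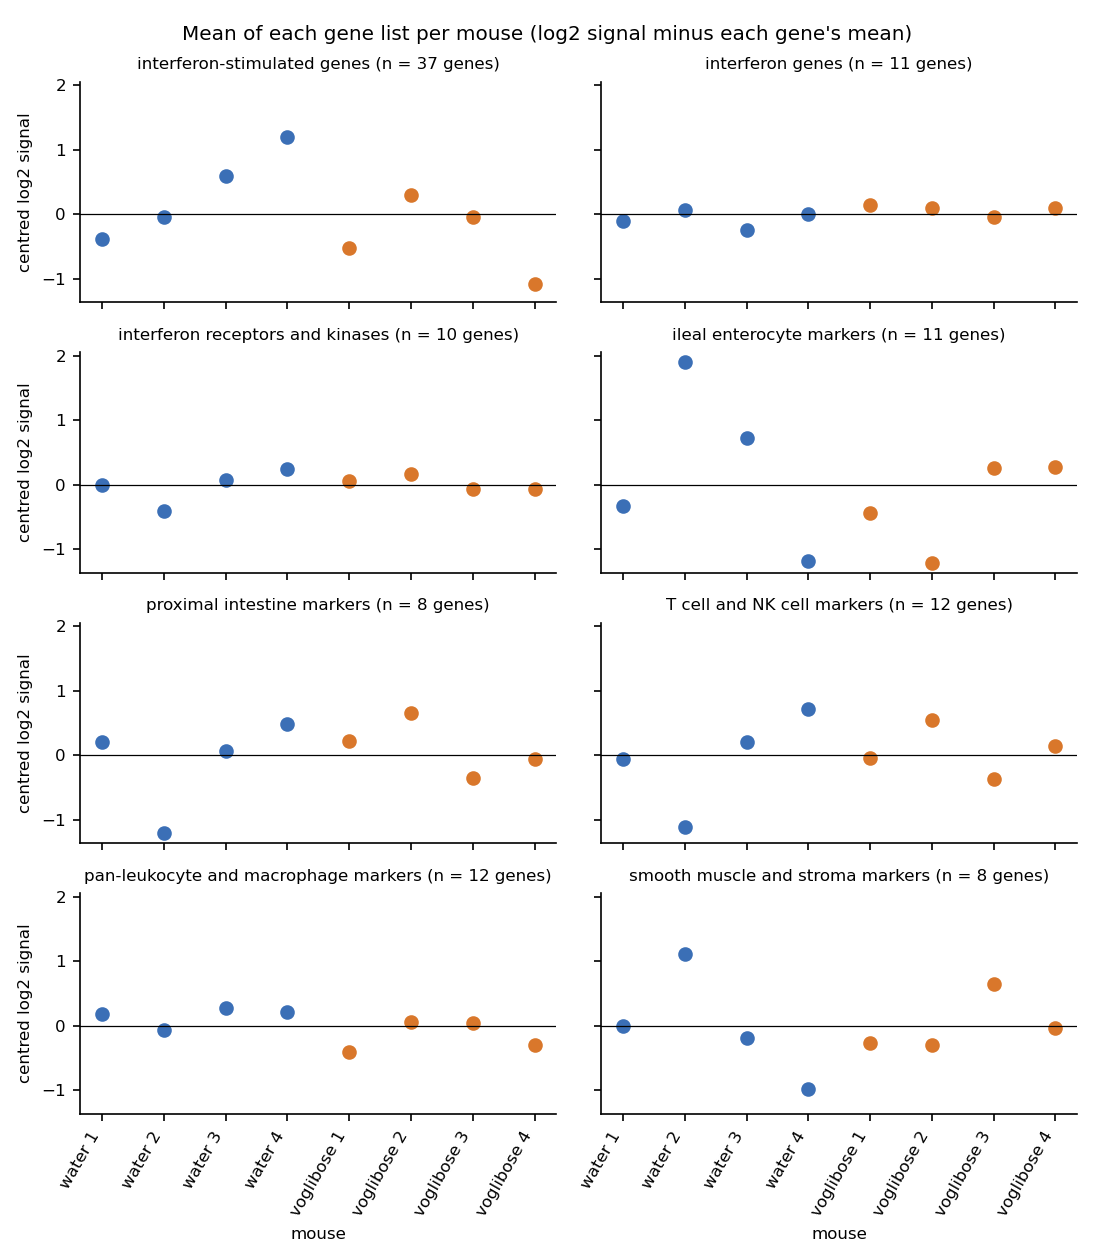
Mean of 8 gene lists in each mouse (log2 signal minus each gene's mean over 8 mice), blue for water and orange for voglibose. Interferon-stimulated genes run from -1.09 in voglibose mouse 4 to 1.20 in water mouse 4, while interferon genes and their receptors stay between -0.41 and 0.24.

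Outside the list, the 10 genes whose signal was most like the members' mean over the 8 mice were found by Pearson correlation, from 0.960 to 0.991. They were Ogfr, Oas1a, Gm5431, Oas1g, Laptm4a, Slfn5, Ifit1, Pgk1, Slc30a4 and Metrnl. Ifit1, Oas1a and Oas1g belong to the antiviral families left out here, and Slfn5 is a Schlafen gene also known to be induced by interferon. Ifit1 differed by -2.08 ± 0.80, Oas1a by -1.67 ± 0.78 and Oas1g by -1.57 ± 0.74 (SE), while the opioid growth factor receptor gene Ogfr, with the highest correlation, differed by -0.40 ± 0.29. The glycolytic enzyme gene Pgk1 and the lysosomal gene Laptm4a differed by -0.29 ± 0.16 and -0.17 ± 0.14. They were picked for their likeness out of the whole array, so the correlations carry no test.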

How the data were processed

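Total RNA of the ileum, 250 ng per array, was hybridised to 8 Affymetrix arrays, and groups were taken from the labels. The authors deposited log2 signals per probe set. RMA and the Transcriptome Analysis Console were used, per the submitters' processing notes, with no versions or settings. The log2 scale was read from the values. No source used here gives a scan date or slide, so batches could not be tested. As usually run, RMA brings arrays to a common distribution, which hides a change in total RNA and compresses differences of dim genes. With no settings given, whether the deposited scale compresses or stretches differences was not tested. The number of arrays limits the precision.

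Members were matched by platform gene symbol, each to 1 probe set. Groups were compared over all 22206 probe sets with limma 3.58.1 under R 4.3.3 (lmFit, then eBayes, no trend, no filter, no covariates), 2-sided, with Benjamini-Hochberg adjustment and a threshold of 0.05. The fit was tested on simulated data. Members, lists and the naming rule were chosen with earlier results of these data known. The rule gave values in each mouse for the 2 members with the largest and the 1 with the smallest absolute difference in each role, for further lists the genes with unadjusted p under 0.05 and 7 fixed genes, and the 10 genes most like the members. Fabp6, Vil1, Fabp2, the named ileal markers and the 3 leukocyte markers with higher means were singled out after their values were seen. Alternatives were a replicate block, each mouse left out, both pairs of mice named in the report left out, further quantile normalization, median centring, a filter on dim probe sets, trend and robust fitting, no moderation, and the mean of all probe sets of a gene. Water mouse 4 and voglibose mouse 4 were picked as a pair because the members' mean was highest and lowest in them. Promoter windows came from RefSeq tables. Plots used matplotlib 3.10.9 (Python 3.11.15).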

Additional observations from a re-analysis of the deposited data

Results flagged for a closer look

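Of 76 groups of 4 values examined (37 members and their mean, in each group), 2 held a mouse far from the others. Chance gives about 1 in 20 independent groups, and these 2 are no more than that rate. The members share the same mice and vary together, so the count cannot decide whether the 2 arose by chance. Both were water mouse 4. Irf1 had 14.77 in this mouse, while the other water mice lay between 13.32 and 13.53. Mx1 had 7.36, with the others between 6.10 and 6.24. In both genes voglibose mouse 2 was also the highest of its group, at 14.27 and 7.26. This is general to the list: water mouse 4 was the highest of its group in 31 of 37 members and voglibose mouse 2 in 28. These are the mice with the lowest Fabp6. The part of the region in these values was not tested.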

How the results depend on the processing

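No member passed the adjusted threshold under any of the 17 alternatives that were run, with adjusted p of members from 0.505 upwards. The mean of all probe sets of a gene repeats the main fit, since each member had 1 probe set. No probe set passed under the other 16, of which the filter tests only probe sets above the median signal. Probe sets at an unadjusted p under 0.05 numbered 1671, between 969 and 1906 with a mouse left out, and 1019 after the filter on dim probe sets, which tests fewer. Members at that p numbered 11. They were 1 to 17 with a mouse left out, 5 with trend and robust fitting, 3 with no moderation of the variance and 1 without water mouse 4 and voglibose mouse 4 together. Moderation lowers the variance used for members with a wide spread and adds degrees of freedom, and the fit with no moderation does neither. The cause of the other changes was not tested. Counting only probe sets at that p, the share lower in voglibose mice was 59.1%, 50.5% after a further quantile normalization and 72.0% after the filter, while 33 of 37 members were lower after the quantile normalization. The members' median stayed below 0 throughout, from -0.74 to -0.36 with a mouse left out and at -0.50 after the quantile normalization. The replicate numbers did not pair the mice: same-numbered mice had correlations of deviations of 0.015, -0.324, 0.0141 and -0.184. With the replicate block the members at that p were 8 and the probe sets 1529.

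Only 12 of the 17 alternatives can change a member's difference: each mouse left out, both pairs left out, the quantile normalization and the centring. Under these 12, 25 members kept their sign and 12 turned at least once, in 28 of 444 refits. With a mouse left out, the differences that turned ran from -0.0025 to 0.22 in Socs1, -0.26 to 0.31 in Mx1, -0.13 to 0.43 in Sp100, -0.25 to 0.14 in Trim25, -0.45 to 0.14 in Irf1, -0.20 to 0.12 in Adar, -0.35 to 0.13 in Samhd1 and -0.30 to 0.033 in Epsti1. All upper ends but that of Epsti1 came from leaving out water mouse 4 or voglibose mouse 4. Samhd1 had 0.015 after the quantile normalization, and Nmi 0.027 without water mouse 4 and voglibose mouse 2. Without water mouse 4 and voglibose mouse 4, 8 members turned: Irf1 0.15, Irf9 0.07, Adar 0.23, Trim25 0.21, Parp9 0.04, Samhd1 0.29, Lgals3bp 0.053 and Epsti1 0.013. Dim members such as Socs1 and Isg15 lie near the background of the arrays, which limits what their differences can show.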
